A study of Homo sapiens with 6 samples.

Results

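The Mediator kinase module is the detachable part of Mediator, the large complex that links transcription factors to RNA polymerase II. It holds a kinase, CDK8 or its paralogue CDK19, the partner cyclin C (gene CCNC), MED12 or its paralogue MED12L, which activates the kinase, and MED13 or its paralogue MED13L, which ties the module to core Mediator. The paralogues of a pair take each other's place, so that a module holds 1 of each. In acute myeloid leukaemia cells the module's kinase acts at enhancers of genes that define the cell type. Cortistatin A (CA), a steroidal alkaloid, binds and inhibits CDK8 and CDK19. The 7 genes were chosen by symbol, as the targets of the compound and their complex partners, and the rule that picks them uses no measured value. They were represented by 24 probe sets (groups of short oligonucleotides read together) of the 54613 non-control probe sets on the array, and by 7 of 19775 genes. No member probe set listed a second gene.

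RNA came from MOLM-14 cells, a human leukaemia line of the acute myeloid type with an MLL-AF9 rearrangement, held for 3 h with 25 nM CA (3 arrays) or with the solvent DMSO (3 arrays). All arrays were Affymetrix Human U133 Plus 2.0, and the deposited values are log2 expression values made with RMA. The line stands for 1 leukaemia, and the samples were wells plated in triplicate with no separate cultures or days named, so the p-values cover only how these 3 wells per group varied, which may be technical variation. The arrays measured RNA and not kinase activity or protein, and in bulk RNA fewer cells and less RNA per cell cannot be told apart.

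Array medians lay between 5.03 and 5.08 (log2), and pairwise correlations of arrays lay between 0.996 and 0.998. The array of CA replicate 3 stood apart, at 33.8 on the first principal component (31.6% of the variance), with the rest spread from -12.8 to 6.44. Some myeloid markers were bright: the log2 value in DMSO was 12.46 ± 0.02 for LYZ, 10.32 ± 0.04 for FLT3 and 9.19 ± 0.05 for MEIS1 (mean ± SD, n = 3). Others were dimmer, with CSF3R at 7.77, ITGAM at 7.49, MPO at 6.32, CSF1R at 5.81 and SPI1 at 5.49. Of the 9 measured myeloid markers, 8 lay above the median of every array. CD14 was the exception, at 3.80 ± 0.20. Of 15 markers of lymphoid, erythroid, megakaryocytic, epithelial and fibroblast cells, 8 lay above the median of every array. The brightest, NKG7 at 7.63 ± 0.03, read above ITGAM, MPO, CSF1R and SPI1. A value above the array median is thus not by itself a sign of expression. None of these 24 markers changed with CA at an adjusted p under 0.05 in limma, while 3 had an unadjusted p under 0.05, of which MEIS1 and HBB were higher and MS4A1 lower.

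After 3 h of CA, no transcript of the kinase module had changed by the test used. In limma with Benjamini-Hochberg adjustment over all probe sets, 0 of the 24 member probe sets passed an adjusted p of 0.05, where 0.22% of all probe sets did (120 of 54613, 116 of them higher in CA). At an unadjusted p under 0.05 the count was also 0 of 24, where 8.62% of all probe sets passed. The adjusted p-values of the members lay between 0.593 and 0.994. Their log2 changes ran from -0.30 to 0.14 with a median of -0.065, and 9 were higher and 15 lower. Over all probe sets the median was -0.0011 and 49.6% were higher. Whether the probe sets of 1 gene read the same transcripts was not tested. They were measured on the same arrays and are not independent of each other.

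The size that could be resolved is given by the confidence intervals. Taking the brightest probe set of each gene, the 95% intervals in limma together spanned 0.754-fold to 1.23-fold, so that a change beyond this span lay outside the interval of each of the 7 genes at that probe set. Over all 24 probe sets the span was 0.633-fold to 1.23-fold, with the lower end set by a dim probe set of CCNC. The median standard error of the members' log2 change was 0.084, against 0.083 over all probe sets. The smallest change among the 120 probe sets that passed was 0.41 on the log2 scale, which is larger than that of any member.

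**Figure D1:**
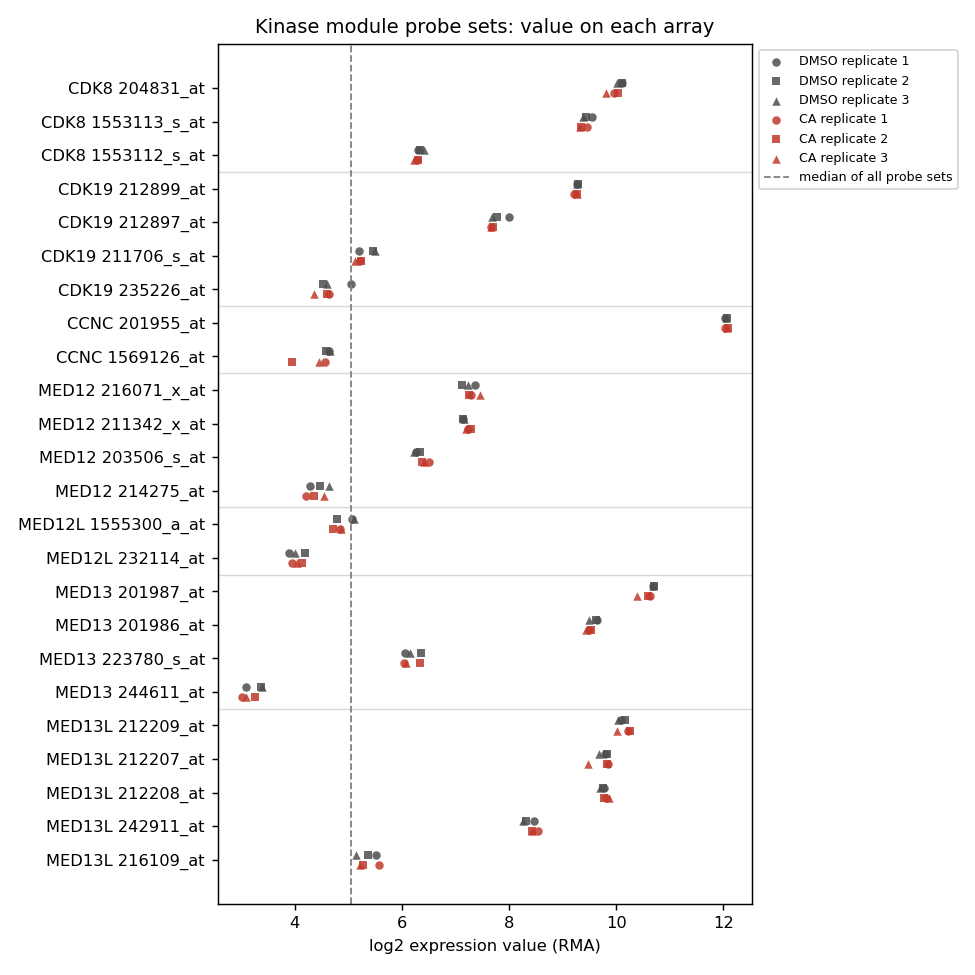
Log2 expression value (RMA) of each of the 24 probe sets on each of the 6 arrays, DMSO in grey and CA in red, with the median of all probe sets as a dashed line. Probe sets of 1 gene differ far more than the groups do, as for CCNC at 12.05 and 4.63 in DMSO.

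The kinases come first. CDK8, the kinase first found in the module, had log2 values of 10.11, 10.10 and 10.02 in DMSO and 9.96, 10.03 and 9.82 in CA at its brightest probe set, 204831_at. The lowest value was that of CA replicate 3, and the groups overlapped at DMSO replicate 3 and CA replicate 2. The level in CA was 0.908-fold that in DMSO (95% confidence interval 0.807 to 1.02, limma adjusted p = 0.644). Without CA replicate 3 the log2 change went from -0.14 to -0.080 (adjusted p = 0.680). The other 2 probe sets of CDK8 gave log2 changes of -0.084 and -0.075, so all 3 were below 0 and none passed. In DMSO the 3 lay at 10.08, 9.46 and 6.35, each above the median of every array.

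CDK19 is the paralogue that can take the place of CDK8. Its brightest probe set, 212899_at, had the smallest standard error of the log2 change among the kinase probe sets, 0.052. It read 9.27, 9.29 and 9.27 in DMSO and 9.22, 9.28 and 9.27 in CA. The groups overlapped, and the level in CA was 0.988-fold that in DMSO (0.907 to 1.08, limma adjusted p = 0.946). Its other 3 probe sets were dimmer, at 7.82, 5.39 and 4.73 in DMSO, and gave larger negative log2 changes of -0.14, -0.19 and -0.19. They also varied more, with SDs in DMSO of 0.17, 0.17 and 0.27, against 0.049 to 0.086 for the probe sets of CDK8. At 212897_at DMSO replicate 1 was the highest and the remaining 5 arrays ranged from 7.66 to 7.78. The lowest adjusted p of the 4 was 0.625 in limma. The dimmest, 235226_at, lay below the median of every array.

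CCNC encodes cyclin C, without which the kinase is inactive. Its main probe set, 201955_at, was the brightest of all 24 and lay at the 98.6th percentile of all probe sets in DMSO. Values were 12.03, 12.07 and 12.06 in DMSO and 12.02, 12.09 and 12.06 in CA. The groups overlapped fully, the log2 change was 0.0061 (-0.12 to 0.13) and the limma adjusted p was 0.984. The second probe set, 1569126_at, was dim. It read 4.65, 4.58 and 4.66 in DMSO and 4.57, 3.96 and 4.46 in CA, so that the CA values lay just below the DMSO values and that of CA replicate 2 far below. This was the largest change of any member (log2 change -0.30, -0.66 to 0.053) and also the least precise, with an SD of 0.32 in CA against 0.042 in DMSO (limma adjusted p = 0.635).

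MED12 encodes the subunit that activates the kinase. At 216071_x_at, its brightest probe set, values were 7.36, 7.12 and 7.24 in DMSO and 7.30, 7.25 and 7.45 in CA, with overlapping groups and a log2 change of 0.094 (-0.11 to 0.30, limma adjusted p = 0.789). This change was 0.035 without CA replicate 3, 0.034 without DMSO replicate 2 and 0.15 without DMSO replicate 1. Both other probe sets of MED12 above the array medians had groups that did not overlap. Values at 211342_x_at were 7.15, 7.14 and 7.16 in DMSO and 7.24, 7.29 and 7.19 in CA. Those at 203506_s_at were 6.27, 6.34 and 6.23 in DMSO and 6.50, 6.37 and 6.41 in CA. The log2 changes were 0.089 and 0.14, and the limma adjusted p-values were 0.698 and 0.593. The latter was the lowest of the 24. The remaining probe set, which was dim, 214275_at, gave -0.091. The endings _x_at and _s_at mark probe sets that can read more than 1 transcript. All 3 brighter probe sets of MED12 carry one, as do 2 of the 3 probe sets of CDK8 and 1 of the 4 of CDK19. So does 223780_s_at of MED13.

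MED12L, the paralogue of MED12, was dim throughout. Values at 1555300_a_at were 5.07, 4.80 and 5.11 in DMSO and 4.84, 4.72 and 4.87 in CA. DMSO replicate 2 lay among the CA values. The level in CA was 0.881-fold that in DMSO (0.754 to 1.03, limma adjusted p = 0.646), and 1 of the 6 values lay above the median of its array. Without DMSO replicate 2 the log2 change went from -0.18 to -0.28. Its second probe set, 232114_at, lay below the median of every array and gave a log2 change of 0.0046.

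MED13, the subunit that joins the module to core Mediator, had the one bright probe set of the module whose CA values all lay below its DMSO values. At 201987_at the values were 10.69, 10.71 and 10.68 in DMSO and 10.62, 10.60 and 10.39 in CA. The SD was 0.015 in DMSO and 0.13 in CA, because CA replicate 3 lay well below the rest. The level in CA was 0.896-fold that in DMSO (0.792 to 1.01, limma adjusted p = 0.618), and without CA replicate 3 the log2 change went from -0.16 to -0.085 (adjusted p = 0.620). The second bright probe set, 201986_at, read 9.65, 9.63 and 9.49 in DMSO and 9.50, 9.53 and 9.44 in CA, with a log2 change of -0.10. Its groups overlapped, since DMSO replicate 3 lay below CA replicates 1 and 2. Both dimmer probe sets also had changes below 0, at -0.050 and -0.16, so all 4 were lower and none passed.

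MED13L, the paralogue of MED13, went the other way at 4 of 5 probe sets, none of which passed. Values at 212209_at were 10.08, 10.16 and 10.04 in DMSO and 10.21, 10.27 and 10.01 in CA. CA replicates 1 and 2 were the highest of the 6 and CA replicate 3 the lowest, so the log2 change of 0.068 (-0.13 to 0.26, limma adjusted p = 0.848) was 0.14 without CA replicate 3 (adjusted p = 0.502). Leaving out CA replicate 2 gave 0.015, CA replicate 1 gave 0.043 and DMSO replicate 3 gave 0.039. The same array set the sign at 212207_at, where CA replicate 3 read 9.46 and the other 5 arrays 9.69 to 9.84. There the log2 change was -0.055 with it and 0.069 without it. The other 3 probe sets gave 0.076, 0.12 and 0.0052.

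**Figure D2:**
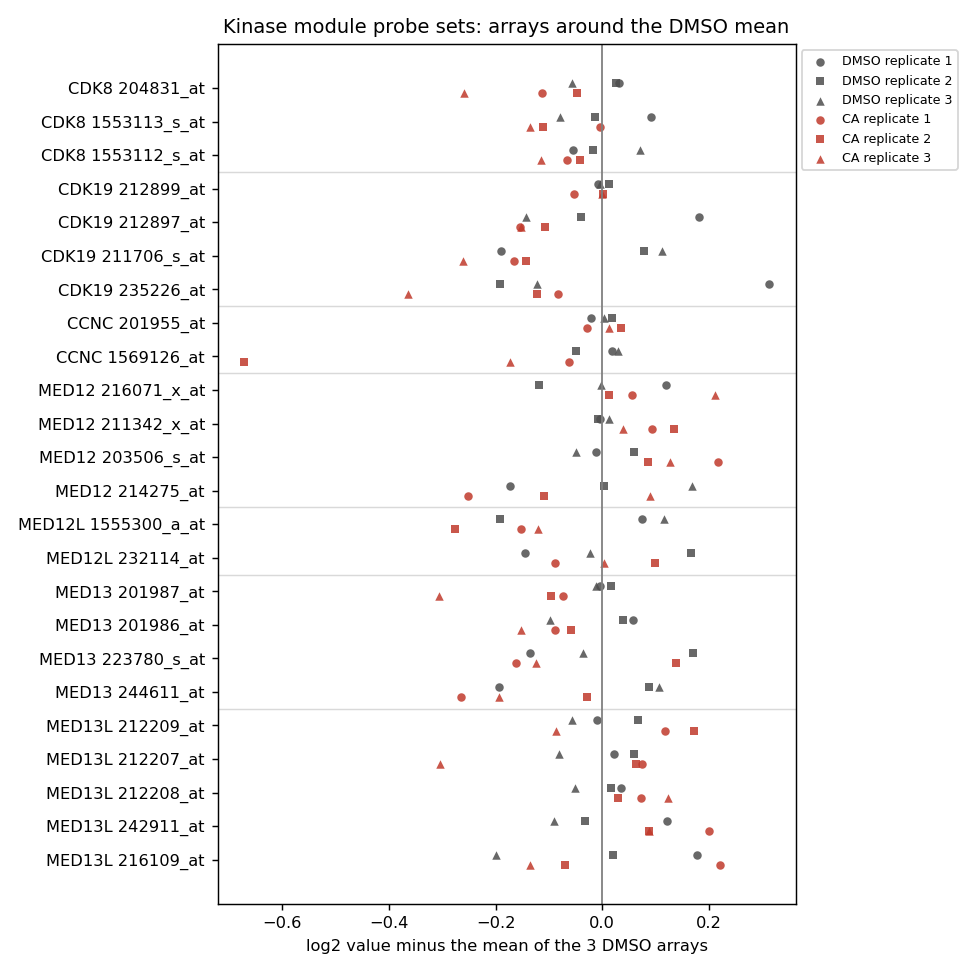
Each array's log2 value minus the mean of the 3 DMSO arrays, for the 24 probe sets, DMSO in grey and CA in red, with 1 symbol shape per replicate number. Of 144 points 130 lie within 0.2 of 0, and CA replicate 3 (red triangles) is the lowest of the 6 arrays at 9 probe sets.

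Across the 24 probe sets, the groups did not overlap at 4, of which 2 were higher and 2 lower in CA. Over all probe sets this held for 15.5%, with 8.96% higher and 6.55% lower, so the members lay near the background. The 4 were 2 of MED12 (higher), 1 of MED13 and the dim one of CCNC (lower). CA replicate 3 was the lowest of the 6 arrays at 9 of the 24 and the highest at 2. Over all probe sets it was the lowest at 21.3% and the highest at 23.6%. Without it, the log2 change was smaller in size at 13 of the 24 and larger at 11, and the sign changed at 1 (212207_at of MED13L). The changes then ran from -0.37 to 0.15 with a median of -0.040, and in limma 0 had an adjusted or an unadjusted p under 0.05.

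**Figure D3:**
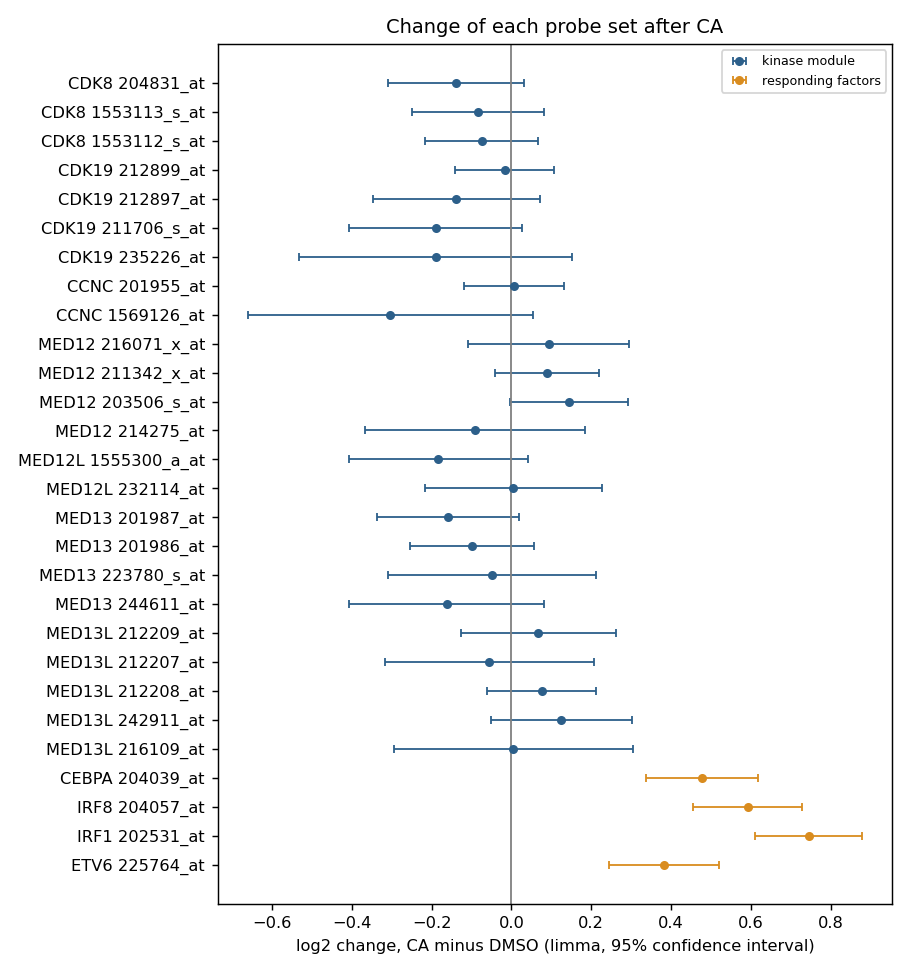
Log2 change (CA minus DMSO) with its 95% confidence interval from limma for the 24 kinase module probe sets (blue) and, for scale, the brightest probe set of 4 transcription factor genes (orange). Every blue interval includes 0, and every orange interval lies above it.

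The same arrays registered clear changes elsewhere. CEBPA, IRF8, IRF1 and ETV6, transcription factors of blood cells that the study is recalled to name as responding, were taken for scale and are not independent evidence. At their brightest probe sets the log2 changes were 0.48, 0.59, 0.74 and 0.38, and the limma adjusted p-values over all probe sets were 0.0439, 0.0206, 0.0188 and 0.0797. ETV6 thus missed the threshold in the fit of all probe sets and passed with 1 probe set per gene (adjusted p = 0.0307). On the log2 scale the lowest bound among the 4 factors was 0.24. At the brightest probe sets the intervals of CDK8 (ending at 0.031), CDK19 (0.11), CCNC (0.13), MED12L (0.042) and MED13 (0.019) ended below it. Those of MED12 (0.30) and MED13L (0.26) reached above it. These upper ends bear on a rise only. The lower ends were -0.31 for CDK8, -0.41 for MED12L and -0.34 for MED13, each further from 0 than 0.24. They were -0.14 for CDK19, -0.12 for CCNC, -0.11 for MED12 and -0.13 for MED13L.

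Paralogues were then compared within each array, which asks whether the genes of a pair changed unequally and says nothing of which is more abundant. Pairs were read at the brightest probe set of each gene, and 4 were tested with a two-sided exact permutation test over the samples, for which 3 against 3 arrays cannot go below 0.1. The difference MED13 minus MED13L was 0.61, 0.55 and 0.65 in DMSO and 0.41, 0.33 and 0.38 in CA. All CA values lay below all DMSO values, and CA replicate 3 lay between the other CA arrays here. The mean moved by -0.23 on the log2 scale, from 0.60 ± 0.05 to 0.38 ± 0.04 (SD, n = 3 each, exact permutation p = 0.1, the smallest possible, adjusted p = 0.133 over the 4 pairs).

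MED12 minus MED12L was 2.29, 2.32 and 2.13 in DMSO and 2.46, 2.54 and 2.58 in CA. The groups did not overlap, and the mean differed by 0.28 (exact permutation p = 0.1, adjusted p = 0.133). Since 5 of the 6 MED12L values lay below their array's median, this difference is not read as unequal change of the pair. CDK8 minus CCNC moved by -0.15, with groups that lay apart by 0.022 (exact permutation p = 0.1, adjusted p = 0.133). CDK8 minus CDK19 was 0.84, 0.82 and 0.75 in DMSO and 0.74, 0.75 and 0.54 in CA. There the groups overlapped, and the mean moved by -0.12 (exact permutation p = 0.2, adjusted p = 0.2). No pair passed an adjusted p of 0.05, which this design does not allow. When all probe sets of each gene were averaged instead, CDK8 minus CDK19 turned to 0.034 and CDK8 minus CCNC to 0.049. MED13 minus MED13L stayed below 0 at -0.16 (exact permutation p = 0.3), and MED12 minus MED12L above 0 at 0.15 (exact permutation p = 0.1).

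**Figure D4:**
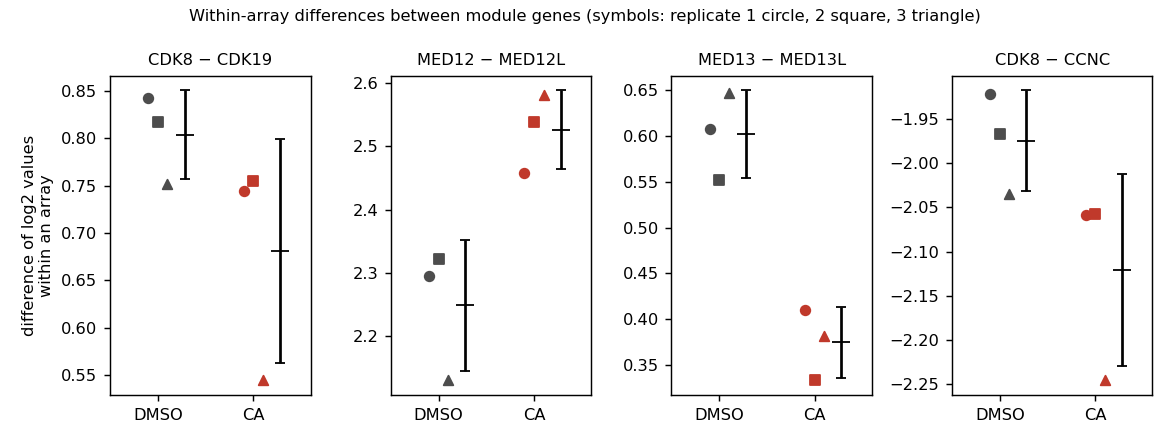
Difference of the log2 values of 2 genes within each array, for 4 pairs, with DMSO in grey and CA in red and the mean ± SD (n = 3) as a black bar beside each group. The vertical axes differ in range and do not start at 0; the groups are apart for MED12 − MED12L, MED13 − MED13L and CDK8 − CCNC and overlap for CDK8 − CDK19, and MED12L is too dim for its pair to be read as unequal change.

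The rest of Mediator and its neighbours in transcription were counted with 1 probe set per gene, where 0.895% of 19775 genes passed in limma and 11.6% had an unadjusted p under 0.05. In that fit 0 of the 7 kinase module genes passed and 0 had an unadjusted p under 0.05, with a median log2 change of -0.017. Of 24 measured genes of core Mediator, which binds RNA polymerase II and activators, 0 passed, and the median was 0.0084. With no adjustment 2 had a p under 0.05, each higher in CA. Both were of the head, the part that contacts the polymerase: MED11 had a log2 change of 0.17 (limma adjusted p = 0.184) and MED20 one of 0.13 (adjusted p = 0.358). The median was 0.047 over 8 head genes, 0.0034 over 10 genes of the middle and backbone, and -0.035 over 6 tail genes. In the middle, MED31 and MED19 had log2 changes of 0.098 and 0.083, and in the tail MED15 and MED23 had -0.080 and -0.075, with limma adjusted p-values of 0.533 to 0.752. The smallest change that passed in this fit was 0.29, larger than any of these.

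**Figure D5:**
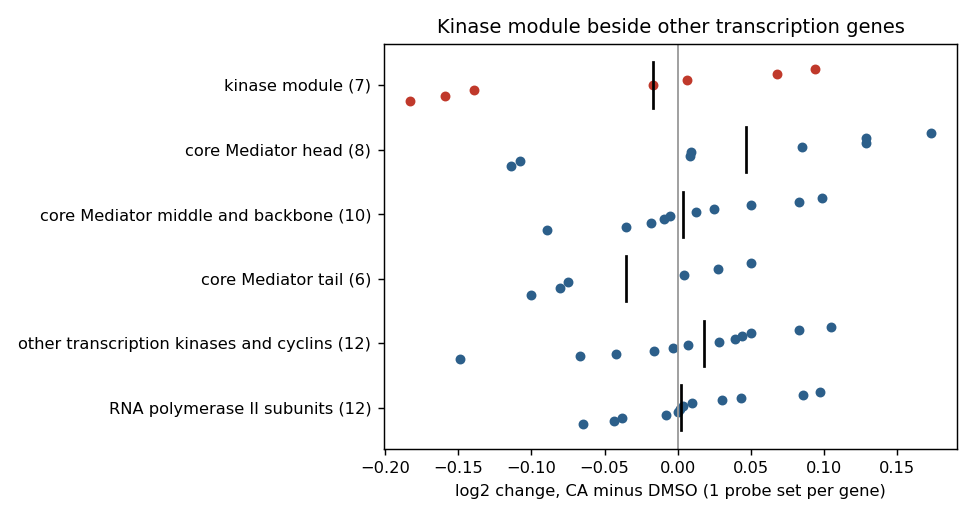
Log2 change (CA minus DMSO) with 1 probe set per gene, for the 7 kinase module genes (red) and 5 lists of other transcription genes (blue), each point a gene, the black bar the list's median and the number of genes in brackets. The kinase module runs from -0.18 to 0.094 and its median of -0.017 lies among the medians of the other lists.

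Other kinases and cyclins of the transcription cycle gave the same count. Of 12 measured genes, among them CDK7 and CDK9, which phosphorylate the polymerase tail, 0 passed and 0 had an unadjusted limma p under 0.05 (median 0.018). CCNH, the cyclin of CDK7, had a log2 change of 0.083 and CDK9 one of 0.10 (limma adjusted p = 0.507 and 0.586). Of 12 RNA polymerase II subunits 0 passed and 0 had an unadjusted p under 0.05 (median 0.0025), with POLR2J at 0.097 and POLR2I at 0.085 (limma adjusted p = 0.446 and 0.506). FBXW7, a ubiquitin ligase subunit that targets MED13, had a log2 change of 0.0079, and CARM1, which methylates MED12, one of -0.044 (limma adjusted p = 0.986 and 0.837).

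Among 7 measured genes of proteins reported as substrates of CDK8 or CDK19, 1 rose and 0 fell in limma, and with no adjustment 1 was higher and 2 were lower (p under 0.05), where 0.895% and 11.6% of all genes passed. SMAD3, which carries TGF-beta signals to the nucleus, rose from a log2 value of 6.48 ± 0.07 in DMSO to 7.15 ± 0.11 in CA (mean ± SD, n = 3; log2 change 0.66, 0.50 to 0.83, adjusted p = 0.0173). That adjusted p is from the fit with 1 probe set per gene. In the fit of all probe sets, which adjusts over more tests, the other probe sets of SMAD3 gave 0.35, 0.14 and 0.12 (limma adjusted p = 0.185, 0.759 and 0.710). The adjusted p-values of the 2 fits are not directly comparable. NOTCH1, the next by p, had a log2 change of -0.19 (limma adjusted p = 0.220). The median of the list was -0.029.

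The genes whose values ran closest to those of the kinases over the 6 arrays were found by the root mean square difference of log2 values, each gene first centred on its own mean, among 9887 genes at or above the median level. NAA16, FMR1 and MAD2L1 were nearest to CDK8, at 0.012, 0.014 and 0.015, where the median over all these genes was 0.113. MRPL20, LRPPRC and KCMF1 were nearest to CDK19, at 0.0051, 0.0055 and 0.0084, against a median of 0.0699. As the smallest of 9887 distances over 6 arrays, these lie below the median by selection. Whether any of these genes shares its regulation with a kinase was not tested. At its brightest probe set CDK19 varied by only 0.021 about its mean and CDK8 by 0.098, so that likeness to CDK19 is mostly likeness in being flat.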

How the data were processed

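The log2 values used here are those the authors deposited, 1 per probe set and array. The submitters' processing notes name RMA and affy. RMA corrects background, quantile normalises arrays and summarises probes, so it hides any shift common to all transcripts and can shrink changes of dim probe sets. Neither versions nor scan batches were given in the sources used here. RNA was isolated with either of 2 reagents per the labels' protocols, and which served which sample is not given there.

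Of 54675 probe sets, 62 controls were left out. Symbols came from the platform's annotation, and all 24 member probe sets matched RefSeq (GRCh38.p14) symbols by gene number. The 3 CA and 3 DMSO arrays were compared in limma 3.58.1 in R 4.3.3 (lmFit, eBayes, two-sided, Benjamini-Hochberg), over all 54613 probe sets and again with each gene's probe set of highest mean. No value was filtered. Precision is limited by the number of arrays.

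The members (by symbol alone) and the lists were proposed with earlier results of these data known. Named by rule were each member's brightest probe set and any with an unadjusted p under 0.05, which added none, up to 4 called or otherwise the 2 lowest-p genes of each list, the 4 factors, and the 3 genes nearest to each kinase. Other member probe sets were described in full where their groups did not overlap or 1 array stood apart, chosen after their values were seen. MED6, MED25, CDK11A, CDK11B and some other listed genes were not analysed here. Alternatives were a replicate block, an intensity trend with a robust fit, array weights, no dim probe sets, median centring, no _x_at, _s_at and _a_at probe sets, and leaving out each array. Same-numbered arrays deviated together with correlations of 0.081, 0.192 and 0.260. The closest DMSO array was replicate 2 for CA replicates 1 and 2, and replicate 3 for CA replicate 3. With 3 arrays per group this does not settle whether the numbers mark pairs. The main fit did not take them as pairs, and the replicate block did.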

Additional observations from a re-analysis of the deposited data

How the results depend on the processing

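In limma, 0 of the member probe sets passed under any of the 12 alternatives, with lowest adjusted p-values of 0.272 to 0.723. At an unadjusted p under 0.05, where there were 0, the alternatives gave 0 to 3. The number of all probe sets called, 120, was 740 with a trend on intensity plus a robust fit, 398 without dim probe sets, 196 with array weights, 47 without _x_at, _s_at and _a_at probe sets, and 0 to 6 when 1 array was left out (0 without DMSO replicate 1 or 3 or CA replicate 1 or 2, 1 without DMSO replicate 2, 6 without CA replicate 3). With the replicate block it was 1, and the block called no member. Of the 177 genes called with 1 probe set per gene, the counts were 546, 351 and 74 under the trend, the dim filter and the suffix filter, 6 with the replicate block, and 1 to 112 when 1 array was left out (5, 8 and 1 without DMSO replicates 1, 2 and 3, and 6, 9 and 112 without CA replicates 1, 2 and 3). CDK8, MED12, MED12L, MED13 and MED13L kept the sign of their change under each alternative that could be fitted. CDK19 ran from -0.026 without CA replicate 2 to 0.0013 without CA replicate 1, and its median over probe sets was -0.16 against -0.017. CCNC went from -0.0084 without CA replicate 2 and -0.0048 without DMSO replicate 1 to 0.024 without CA replicate 1, and to -0.15 as the median of its probe sets. CDK8 minus CDK19 and CDK8 minus CCNC turned to 0.034 and 0.049 with all probe sets averaged. The cause was not tested. No signal over background was given per probe set, so the 6 dim member probe sets have no stated detection limit.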
